A study of Mus musculus with 11 samples.

Results

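Telomerase and shelterin genes were followed in single cells of mouse lung: 10 genes chosen by symbol, of 31053 genes in the deposited tables. Telomerase was represented by Tert, its reverse transcriptase subunit, by Dkc1, which encodes the RNA-binding protein dyskerin, and by Wrap53, which encodes the factor TCAB1 that brings telomerase to Cajal bodies. Shelterin, the complex that coats telomeres, was represented by Terf1, Terf2, Terf2ip, Tinf2, Acd, Pot1a and Pot1b. Each gene was found once by its exact symbol, and all 10 had counts in all 11 libraries. They held 75238 of the 535916098 UMIs (unique molecular identifiers, one per captured RNA molecule) in the cell barcodes that passed the filters, a level of 140 CPM (UMIs per 1000000 UMIs).

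The libraries came from enzymatically dissociated whole lung, with red blood cells lysed, and were made with 10x Genomics 3′ droplet chemistry. By the labels, 1 library was wild type (WT, +/+, 18 months), 3 were p21 heterozygotes (p21Het, +/-, at 19, 18 and 18 months), 5 were p21 mTert (p21mTert, +/mTert, 1 at 20 months and 4 at 18) and 2 were p21 mTertCD (p21mTertCD, +/mTertCD, both at 18 months). The sample titles give 18 months for every library, and this conflict was not resolved. The gene for p21, a cyclin-dependent kinase inhibitor, is Cdkn1a. In the published design, the mTert allele places a mouse Tert coding sequence at the Cdkn1a locus, and the CD allele encodes a catalytically inactive protein. By the labels, every group except WT carries 1 wild-type p21 allele, and p21Het is the comparison group used here. The counts do not tell UMIs of the native Tert gene from UMIs of an inserted copy. How much of the inserted transcript is counted as Tert was not checked, nor whether the modified p21 alleles add UMIs counted as Cdkn1a. The labels do not say how many animals a library holds, so the p-values measure the spread between libraries. A library is called by its group with the replicate number, for example p21mTert_1.

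As background, telomerase adds telomere repeats to chromosome ends by copying its own RNA template, and most adult cells hold little of its reverse transcriptase. Shelterin hides the ends from the DNA damage response. The products of Terf1 and Terf2 bind the double-stranded repeats, the Terf2ip product (RAP1) binds TRF2, the Tinf2 product (TIN2) ties the parts together, and the Acd product (TPP1) joins the single-strand binding POT1 proteins to the rest and draws in telomerase. Mice have a pair of POT1 genes, Pot1a and Pot1b, where humans have a single one. In the lung, defects in telomere maintenance are known for fibrosis and emphysema.

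Upstream sequence is shown for the genes on which the results turn. These are Tert, Cdkn1a as the locus of the insertion, and the paralogues Pot1a and Pot1b, which differed in their order of lineages. The Tert window is that of the native gene. Each window is the 250 bases before an annotated start, written 5′ to 3′ on the gene's strand, from RefSeq with build GRCm38.p6. Capitals mark matches to 5 patterns searched on both strands: TATAAA (the TATA box), GGGCGG (a GC box), CACGTG (an E-box), CCGGAAGT (an ETS site) and the 10-base p53 half-site. No pattern contains another. The Tert window lies at chr13:73626661-73626910 on the plus strand. The Cdkn1a windows lie at chr17:29090729-29090978 and chr17:29093519-29093768 on the plus strand. The Pot1a window lies at chr6:25809219-25809468 and the Pot1b window at chr17:55712637-55712886, both on the minus strand. A second annotated Pot1b start has its window at chr17:55712625-55712874, which shares most bases with the one shown.
Tert: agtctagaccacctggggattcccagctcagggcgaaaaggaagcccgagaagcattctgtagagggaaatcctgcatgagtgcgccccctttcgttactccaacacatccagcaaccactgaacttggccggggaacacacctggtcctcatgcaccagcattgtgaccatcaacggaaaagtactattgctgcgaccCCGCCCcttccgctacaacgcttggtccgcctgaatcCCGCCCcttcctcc
Cdkn1a, first start: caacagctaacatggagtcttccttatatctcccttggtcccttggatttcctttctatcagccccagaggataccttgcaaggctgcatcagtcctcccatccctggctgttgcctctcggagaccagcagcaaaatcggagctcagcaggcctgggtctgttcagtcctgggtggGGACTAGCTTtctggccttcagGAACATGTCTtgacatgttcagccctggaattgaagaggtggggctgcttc
Cdkn1a, second start: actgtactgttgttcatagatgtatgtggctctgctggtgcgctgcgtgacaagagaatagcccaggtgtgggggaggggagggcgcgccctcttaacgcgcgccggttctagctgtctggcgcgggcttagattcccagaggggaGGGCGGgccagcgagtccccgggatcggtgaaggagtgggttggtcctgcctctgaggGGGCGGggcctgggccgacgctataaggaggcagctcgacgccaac
Pot1a: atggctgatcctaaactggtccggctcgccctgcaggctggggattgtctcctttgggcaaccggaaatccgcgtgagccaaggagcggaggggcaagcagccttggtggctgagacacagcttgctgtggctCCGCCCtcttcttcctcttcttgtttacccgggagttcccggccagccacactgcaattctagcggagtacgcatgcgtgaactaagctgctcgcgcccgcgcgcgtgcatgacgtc
Pot1b: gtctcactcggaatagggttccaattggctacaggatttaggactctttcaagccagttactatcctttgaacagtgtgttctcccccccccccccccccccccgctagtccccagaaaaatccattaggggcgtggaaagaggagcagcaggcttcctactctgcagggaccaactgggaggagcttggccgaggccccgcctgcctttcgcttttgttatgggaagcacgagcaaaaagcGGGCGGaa
The first Cdkn1a window holds 2 p53 half-site matches, GGACTAGCTT and GAACATGTCT, and the Tert window none. Both the Tert window and the second Cdkn1a window hold 2 GGGCGG matches, in Tert as its reverse complement CCGCCC. The Pot1a window and the Pot1b window hold 1 each, and the second Pot1b window holds the same match. Of 32851 windows of the same length, 32.7% held GGGCGG, 12.4% TATAAA, 7.13% a p53 half-site, 6.02% CACGTG and 2.88% CCGGAAGT. A match describes these letters only. Of the 10 members and Cdkn1a, 10 genes had a window, and Terf1 had none in the table.

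The members are spread over 8 chromosomes of GRCm38 (GENCODE M21 annotation), and all are protein-coding. Tert (ENSMUSG00000021611) lies on chromosome 13 from 73626911 to 73649843, plus strand. Cdkn1a (ENSMUSG00000023067) lies on chromosome 17 from 29090976 to 29100727, and Pot1b (ENSMUSG00000024174) on the same chromosome from 55651951 to 55712628. Terf1 (ENSMUSG00000025925) lies on chromosome 1 from 15805646 to 15844052 and Pot1a (ENSMUSG00000029676) on chromosome 6 from 25743737 to 25809246. Chromosome 8 holds Terf2 (ENSMUSG00000031921, from 107069400 to 107096547), Terf2ip (ENSMUSG00000033430, from 112011398 to 112020528) and Acd (ENSMUSG00000038000, from 105695860 to 105701102). Tinf2 (ENSMUSG00000007589) lies on chromosome 14 from 55674689 to 55681820. Wrap53 (ENSMUSG00000041346) lies on chromosome 11 from 69561758 to 69580255, and Dkc1 (ENSMUSG00000031403) on chromosome X from 75095854 to 75109777. Exons of 4 members overlap a gene on the opposite strand: Tinf2 shares 1540 bases with Gmpr2, Acd 1208 with Carmil2, Terf2ip 108 with Gm6793 and Dkc1 45 with Mpp1. The strand setting of the counting is not given in the sources used here, so these 4 genes are uncertain to that extent. How reads that fit both paralogues, Pot1a and Pot1b, were assigned is not given there either.

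Of 81983 deposited barcodes, 69267 had 1000 to 30000 UMIs and at most 14% mitochondrial UMIs and were kept, with 36248337 to 67722156 UMIs per library. Of these, 94.3% fell into 26 lineages by marker genes, named with the ending -like because RNA alone defines them. For T-like, alveolar macrophage-like, AT2-like (type 2 alveolar epithelium) and ciliated-like cells, every marker was highest in the lineage it names, and for gCap-like cells (general capillary endothelium) 4 of 8 were. The counts were 5 of 7 for classical and 6 of 8 for non-classical monocyte-like cells, and 5 of 8 for venous endothelial-like cells. The first deposit (WT_1, p21Het_1 and p21mTert_1) differed from the later 8 libraries, with a median mitochondrial share of 6.30% to 6.58% against 2.82% to 4.28% and a B-like share of 29.0% to 37.9% against 1.40% to 25.8%. In all kept cells, 4 of the 10 members (Terf1, Tinf2, Pot1a and Wrap53) were higher in all 3 libraries of the first deposit than in all 8 of the later one, as were 15% of the 12903 genes with at least as many UMIs as Tert. This held for 3 members in gCap-like cells (12.4% of genes by the same rule), 1 in T-like cells (7.96%) and 0 in B-like (11.8%) and alveolar macrophage-like cells (9.01%). Any 2 libraries shared 9 to 83 barcodes, and 1.79% of kept barcodes occurred in more than 1 library.

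Over all kept cells, Tert was the member whose level set both insertion alleles above p21Het. Levels are in CPM of the cells considered. Tert was at 0.772, 0.842 and 0.544 CPM in the p21Het libraries, in order of replicate, and at 1.13 in WT. It was at 2.01, 3.28, 3.07, 2.52 and 2.00 in p21mTert, and p21mTertCD had 2.59 and 1.9. Every library with an inserted copy lay above every p21Het library, and the mTert and CD libraries overlapped. These values rest on 27 to 188 Tert UMIs per library. Of 12829 genes with at least as many UMIs as Tert, 1.79% were likewise higher in all p21mTert than in all p21Het libraries, and 6.84% in p21mTertCD than in p21Het. In the plot of members by library, Tert is the panel in which p21mTert and p21Het do not overlap.

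**Figure D1:**
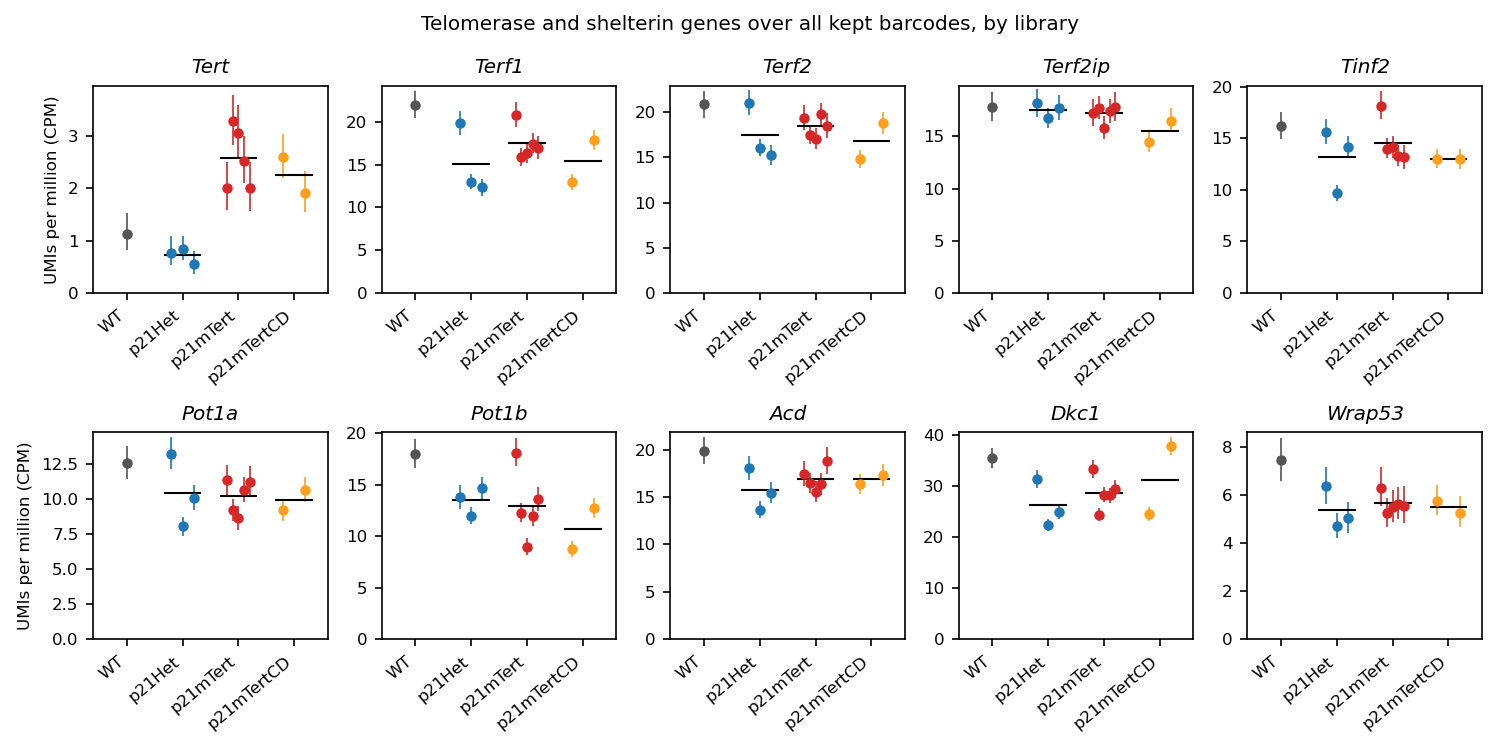
Level of each member over all kept barcodes (y axis, CPM) by genotype (x axis), with 1 point per library, its exact 95% counting interval, and the group mean as a black line. Tert lay between 0.544 and 0.842 CPM in p21Het and between 2.00 and 3.28 in p21mTert, while the other 9 members overlapped between these groups.

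For the other 9 members, p21mTert and p21Het overlapped with both deposits pooled. Of the 12829 genes with at least as many UMIs as Tert, 2.8% did not overlap between these groups, in either direction. For Terf1, Terf2, Acd and Wrap53, p21Het_2 and p21Het_3 lay below every p21mTert library. For these members the overlap came from p21Het_1 of the first deposit. It lay within the p21mTert range for Terf1 and Acd, and above that range for Terf2 and Wrap53. For Terf1 p21Het_1 was at 19.8 CPM, and p21mTert ran from 15.9 to 20.8. The share of all genes whose overlap came from p21Het_1 alone was not determined. Means are given with the SD, for p21Het (n = 3), p21mTert (n = 5) and p21mTertCD (n = 2) in this order. Terf1 was at 15.1 ± 4.16, 17.5 ± 1.95 and 15.4 ± 3.49 CPM. Dkc1 was at 26.2 ± 4.65, 28.7 ± 3.19 and 31.1 ± 9.38, and Wrap53 at 5.37 ± 0.876, 5.65 ± 0.39 and 5.52 ± 0.34, in the same order. The 2 p21mTertCD libraries were far apart for Dkc1, at 24.5 and 37.8 CPM, the latter the highest of all 11. They also differed in composition, with a B-like share of 1.40% in p21mTertCD_1 and 22.2% in p21mTertCD_2. The part of composition in the Dkc1 values was not tested. Pot1b was at 13.5 ± 1.36, 13 ± 3.33 and 10.7 ± 2.77, and Terf2ip, the member that varied least over all libraries relative to its mean, at 17.6 ± 0.746, 17.2 ± 0.80 and 15.5 ± 1.48. Terf2, Tinf2, Pot1a and Acd had means from 9.91 to 18.4 CPM in these 3 groups. The single WT library was above the means of the other 3 groups for all 9, as it was for 43.4% of the 12903 genes with at least as many UMIs as Tert. It belongs to the first deposit, so genotype and deposit cannot be told apart in it. Besides Tert, Terf2ip did not overlap between p21mTertCD and p21Het, and Tinf2 did not overlap between p21mTert and p21mTertCD, at 11.2% and 20.6% of the 12829 genes.

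With edgeR's quasi-likelihood test over 17503 genes, 0 of the 10 members were called (Benjamini-Hochberg adjusted p under 0.05) in any contrast. Of all genes, 0.0114% were called for p21mTert minus p21Het, 0.12% for p21mTertCD minus p21Het and 0.00571% for p21mTert minus p21mTertCD. At an unadjusted p under 0.05 stood 1, 1 and 0 members, the 1 being Tert, beside 7.24%, 6.26% and 16.1% of all genes. The log2 fold change of Tert was 1.80 (SE 0.29, adjusted p = 0.191) for p21mTert minus p21Het and 1.67 (SE 0.33, adjusted p = 0.139) for p21mTertCD minus p21Het. For the other 9 members the log2 fold changes ran from -0.11 to 0.19, from -0.31 to 0.28 and from -0.19 to 0.20 in the 3 contrasts. DESeq2 called Tert in both contrasts against p21Het (adjusted p = 6.85e-06 and 0.00103), where it called 0.177% and 1.05% of all genes, and 0 members for p21mTert minus p21mTertCD, where it called 3.35%.

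In gCap-like cells, Tert was at 1.03, 0.389 and 0 CPM in p21Het and at 3.97, 15.1, 11.8, 8.85 and 2.80 in p21mTert, with 6.33 and 8.93 in p21mTertCD. All libraries with an inserted copy lay above all p21Het libraries, and 0.883% of genes with at least as many UMIs as Tert in these cells were higher in all p21mTert than in all p21Het libraries. The p21Het libraries held 2 Tert UMIs in these cells and the p21mTert libraries 82, a ratio of the summed levels of 22.4 (exact 95% counting interval 6.01 to 188). The WT library held 0 Tert UMIs there, which allows up to 4.19 CPM.

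In alveolar macrophage-like cells, the airspace macrophages, Tert was at 0, 0.388 and 0 CPM in p21Het and at 1.71, 5.48, 2.60, 3.72 and 1.73 in p21mTert. The p21mTertCD libraries were at 2.41 and 3.54. All 4 Tert UMIs of p21Het lay in p21Het_2, and the ratio of the summed levels was 13.3 (exact 95% counting interval 4.91 to 50.7). Non-classical monocyte-like cells, the patrolling monocytes, held 1 Tert UMI in p21Het and 32 in p21mTert, a ratio of 24.6 with a counting interval from 4.11 to 1002. Classical monocyte-like cells held 2 and 28, and interstitial macrophage-like cells 2 and 25. In all 4 lineages every p21mTert library was above every p21Het library, as were 0.811%, 1.26%, 1.2% and 1.1% of genes by the same rule, in the order of naming.

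In p21Het, whose libraries carry no inserted copy, Tert summed over the 3 libraries was at 1.35 CPM in AT2-like (exact 95% counting interval 0.891 to 1.97), 1.30 in T-like (0.825 to 1.95) and 0.862 in B-like cells (0.493 to 1.40). Erythroid-like cells, taken as the background, were at 0.407 (0.0493 to 1.47), an interval that overlaps each of these. In AT2-like cells, which make surfactant, Tert was at 1.38, 1.32 and 1.41 CPM in p21Het, at 3.00 in WT, and at 1.67, 3.00, 2.84, 2.79 and 1.55 in p21mTert. The groups did not overlap, as for 1.31% of genes, with a ratio of the summed levels of 1.87 (exact 95% counting interval 1.20 to 3.01), and WT matched the highest p21mTert library. In T-like cells Tert was at 1.37, 1.57 and 0.951 CPM in p21Het, at 2.11 in WT and at 1.46, 1.38, 1.79, 0.757 and 1.92 in p21mTert. The T-like groups overlapped, and the counting interval of their ratio, 0.655 to 1.87, includes equal levels. B-like cells were at 0.465, 1.19 and 1.22 CPM in p21Het and at 2.73, 1.04, 1.34, 1.13 and 1.29 in p21mTert, again with overlap.

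The share of Tert UMIs that came from gCap-like cells varied widely between libraries. The p21Het libraries gave 3.13%, 1.75% and 0%. The p21mTert libraries gave 3.85%, 19.1%, 13.8%, 14.8% and 4.00%, and those of p21mTertCD 3.38% and 11.6%. The lowest p21mTert libraries were thus close to the highest p21Het library, which rests on 1 UMI. Pooled over p21Het, AT2-like, T-like and B-like cells gave 23.3%, 19.8% and 13.8% of the 116 Tert UMIs, and gCap-like cells 1.72% (exact Clopper-Pearson 95% interval 0.209% to 6.09%) from 2.80% of all UMIs. Pooled over p21mTert, gCap-like cells gave 13.2% of the 621 Tert UMIs (10.6% to 16.1%) from 3.48% of all UMIs, and AT2-like, T-like and B-like cells gave 12.9%, 8.37% and 8.21%. Pooled over p21mTertCD, gCap-like cells gave 6.58% of the 243 Tert UMIs (3.81% to 10.5%) from 1.89% of all UMIs, and alveolar macrophage-like and T-like cells gave 17.7% and 16.9%. These intervals cover counting error only, not the spread between libraries.

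**Figure D2:**
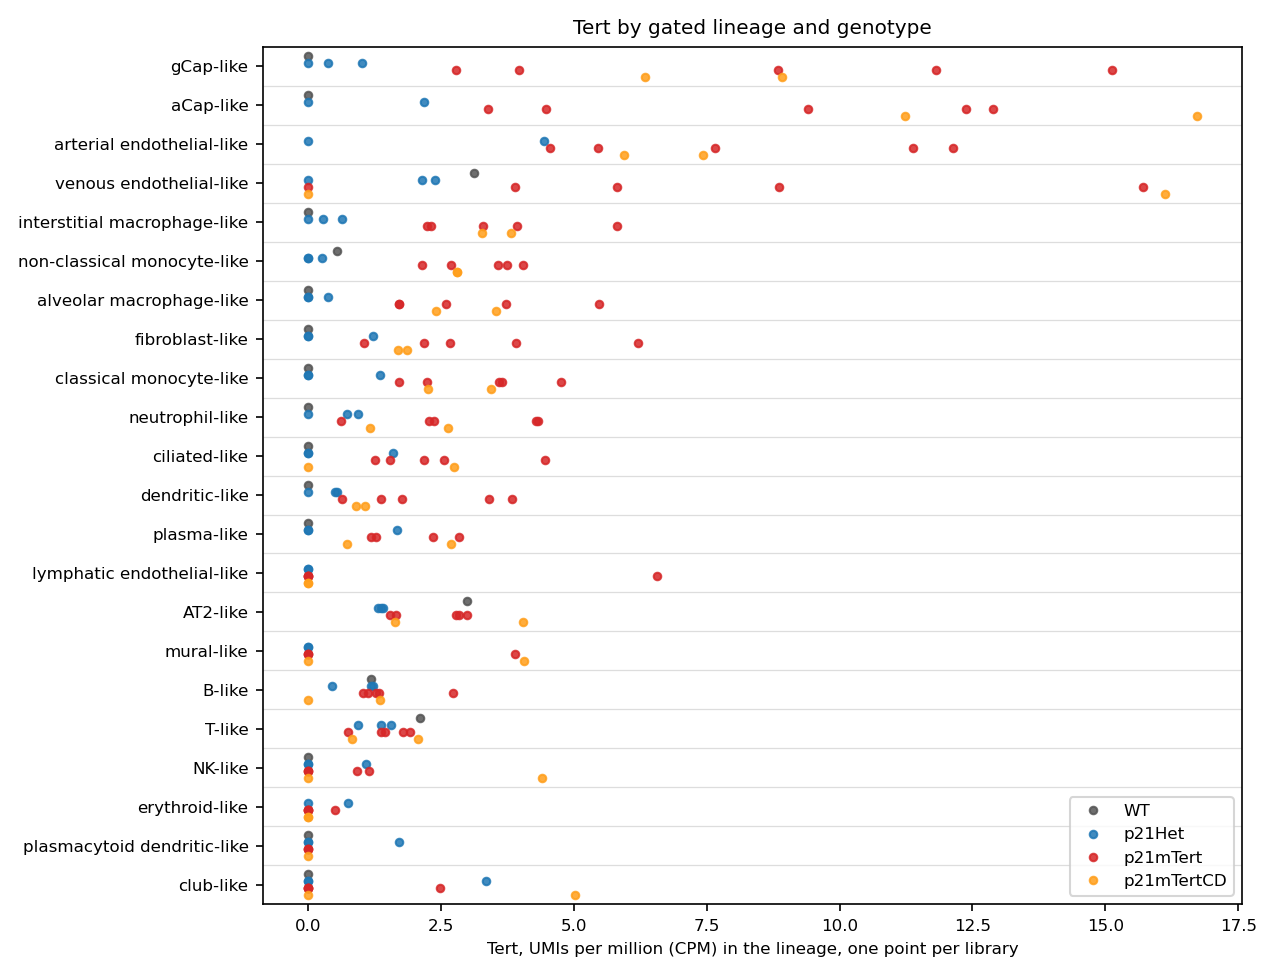
Tert level (x axis, CPM of the lineage) in each of 22 gated lineages (y axis), with 1 point per library coloured by genotype. In gCap-like cells p21mTert ran from 2.80 to 15.1 CPM against at most 1.03 in p21Het, while in T-like cells the genotypes overlapped.

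Over the 22 lineages with at least 20 barcodes in 8 or more libraries, the mean Tert level was higher in p21mTert than in p21Het in 19. The groups did not overlap in 9 of them: gCap-like, aCap-like (aerocyte), arterial endothelial-like, interstitial macrophage-like, non-classical and classical monocyte-like, alveolar macrophage-like, dendritic-like and AT2-like cells. The p21Het values of aCap-like and arterial endothelial-like cells come from 2 libraries. In p21Het_3, left out for fewer than 20 barcodes, aCap-like Tert was at 8.75 CPM from 1 UMI, above p21mTert_1 (3.39) and p21mTert_4 (4.48), so the aCap-like groups overlap when it is included. The arterial level of that library was 0. By the same rule 4.3% of genes in aCap-like, 5.05% in arterial endothelial-like and 0.832% in dendritic-like cells did not overlap. Summed over the 22 lineages, 2.12% of genes with at least as many UMIs were higher in all p21mTert than in all p21Het libraries. The 4 blood endothelial lineages had the highest p21mTert levels, at 8.51 ± 5.19 CPM in gCap-like, 8.51 ± 4.40 in aCap-like, 8.24 ± 3.41 in arterial and 6.86 ± 5.90 in venous endothelial-like cells (SD, n = 5 each). In summed UMIs, more cells with Tert RNA and more Tert RNA per cell cannot be told apart.

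Whether the allele difference itself differed between lineages was tested on the difference in log2(CPM + 1) between 2 lineages of the same library, with 2-sided exact permutation over libraries. Tert in gCap-like minus AT2-like cells averaged -0.74 over the p21Het libraries (SD 0.52, n = 3) and 1.32 over the p21mTert libraries (SD 0.59, n = 5). The difference of 2.06 had an exact permutation p of 0.0179, which no split of 5 against 3 libraries can go below, or 0.0536 adjusted over the 12 such tests of Tert. Tert was thus lower in gCap-like than in AT2-like cells in 3 of 3 p21Het libraries and higher in 5 of 5 p21mTert libraries. The p21Het order is uncertain, since its gCap-like values rest on 1, 1 and 0 Tert UMIs. Summed over p21Het, the exact 95% counting intervals overlap, at 0.0545 to 1.63 CPM in gCap-like and 0.891 to 1.97 in AT2-like cells. Alveolar macrophage-like minus AT2-like cells gave a difference of 1.29 (exact permutation p = 0.0179, adjusted 0.0536), which was 0.98 (p = 0.0536, exact permutation) without barcodes of high doublet score. The sizes depend on the pseudocount, with 3.54 and 3.37 at 0.1 and 1.01 and 0.42 at 5. In the later deposit alone the 2 differences were 2.43 and 1.26, each with an exact permutation p of 0.0667, the lower limit for 4 against 2 libraries. The first deposit holds 1 library per group.

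With T-like cells as the reference, chosen after seeing the data, the gCap-like difference was 2.46 and the alveolar macrophage-like one 1.69 (exact permutation p = 0.0357 each, adjusted 0.0714). The first had an exact permutation p of 0.0571 without any 1 of p21mTert_1 to p21mTert_4, and the second had an exact permutation p of 0.0571 without p21mTert_1 or p21mTert_3 and of 0.0952 without any 1 p21Het library. The second was 1.52, with an exact permutation p of 0.0536, after barcodes of high doublet score were left out. In the later deposit alone they were 2.88 and 1.71 (exact permutation p = 0.0667 and 0.133). With a pseudocount of 5 in place of 1 they were 1.18 and 0.59, and the second had an exact permutation p of 0.0536. For AT2-like against T-like cells the difference was 0.40 (exact permutation p = 0.286), and 0.23 without p21mTert_4. For p21mTertCD minus p21Het the gCap-like differences were 1.97 against AT2-like and 2.54 against T-like cells, with p = 0.1 by exact permutation, the lower limit for 2 against 3 libraries. The AT2-like comparison gave 2.65 without p21mTertCD_1 and 1.28 without p21mTertCD_2.

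The Tert difference tended to be larger in lineages with more Cdkn1a, the locus of the insertion. Over all kept cells Cdkn1a was at 155 CPM in WT and at 169 ± 28.2 in p21Het (SD). It was at 142 ± 16.7 in p21mTert and 146 ± 39.8 in p21mTertCD. Over the 22 lineages the p21mTert minus p21Het difference in mean Tert CPM correlated with log2 of the mean Cdkn1a CPM at a Pearson r of 0.82 and a Spearman rho of 0.88. The p21mTertCD minus p21Het difference gave 0.70 and 0.82. The Tert level of p21Het alone gave an r of 0.04. The points share libraries, and the 2 differences share their p21Het libraries, so these are descriptions with no test. Cdkn1a was at 519 CPM in gCap-like, 872 in aCap-like, 465.7 in arterial and 410 in venous endothelial-like cells, and at 344 in alveolar macrophage-like, 91.4 in AT2-like, 27.1 in T-like and 12.2 in B-like cells. In the first 4 lineages p21Het held 2, 2, 1 and 2 Tert UMIs. The aCap-like difference leaves out p21Het_3, at 8.75 CPM. Venous Tert ran from 0 to 15.7 CPM in p21mTert, overlapping p21Het, and was at 16.1 and 0 in p21mTertCD.

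**Figure D3:**
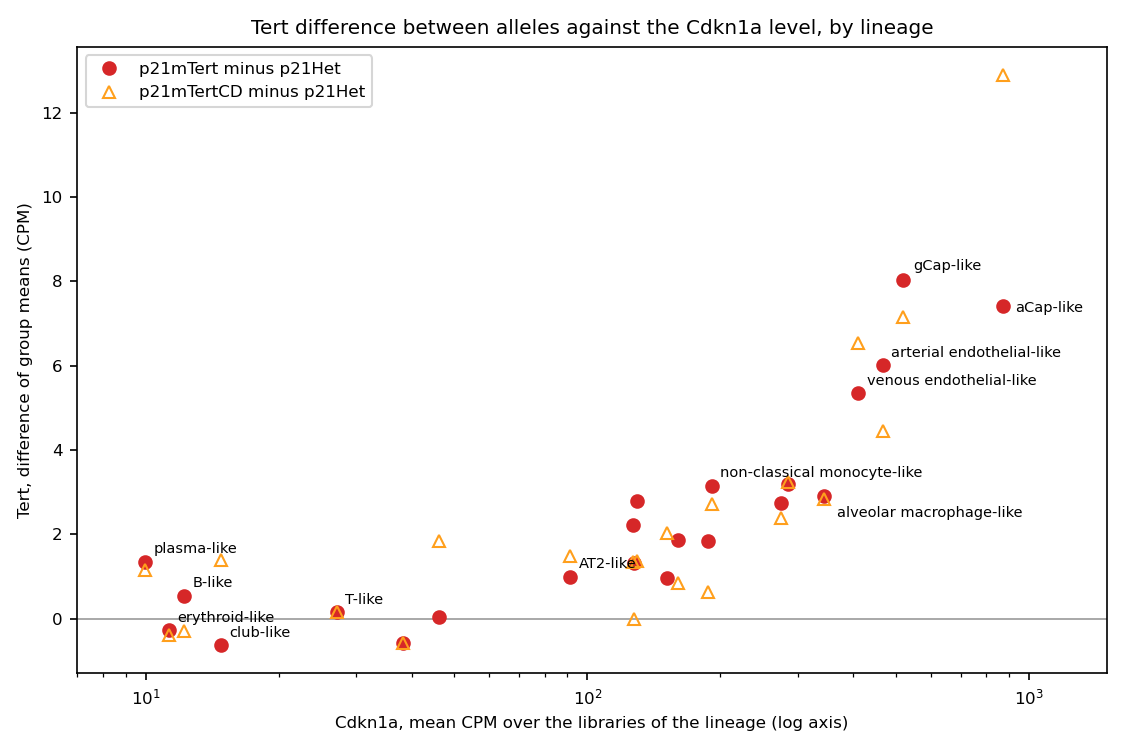
Difference of group means in Tert (y axis, CPM) against the mean Cdkn1a level (x axis, CPM, log scale) over 22 gated lineages, with filled circles for p21mTert minus p21Het and open triangles for p21mTertCD minus p21Het. The gCap-like, aCap-like, arterial and venous endothelial-like lineages, at 410 to 872 CPM of Cdkn1a, have the largest differences, and T-like cells, at 27.1 CPM, lie near 0. The p21Het values of these endothelial lineages rest on at most 2 Tert UMIs each.

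Within libraries, Tert lay more in barcodes with Cdkn1a RNA where the inserted copy was present. In barcodes with at least 1 Cdkn1a UMI, Tert was at 2.34, 5.01, 4.75, 4.07 and 3.34 CPM in p21mTert, and in barcodes without one at 1.79, 1.70, 1.80, 1.13 and 1.02. It was higher in the first kind in 5 of 5 libraries. In p21Het, Tert was at 0.628, 0.678 and 0.496 CPM with Cdkn1a and at 0.894, 1.04 and 0.608 without, higher in 0 of 3. In WT it was at 0.778 with and 1.39 without. The p21mTertCD libraries, at 3.49 and 3.18 CPM with Cdkn1a and 1.55 and 1.06 without, went the way of p21mTert. On the log2(CPM + 1) scale the 2 groups differed by 1.16 in this contrast (exact permutation p = 0.0179, adjusted 0.0536). With pseudocounts of 0.1 and 5 this was 1.74 and 0.51, and in the later deposit alone 1.33 (exact permutation p = 0.0667). It was 1.09 to 1.14 with p = 0.0571 (exact permutation) without any 1 of p21mTert_2 to p21mTert_5. For p21mTertCD minus p21Het it was 1.12 (exact permutation p = 0.1, the smallest possible). Barcodes with a Cdkn1a UMI were deeper, with medians of 8141.5 to 11821 UMIs per library against 3688 to 5585. They also differed in lineage. In p21mTert, 77.8% to 88.1% of alveolar macrophage-like barcodes had a Cdkn1a UMI, against 9.29% to 11.8% of T-like ones. The parts of depth and lineage in this contrast were not tested.

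Within single lineages this contrast rests on few UMIs. In p21mTert gCap-like cells Tert was at 8.83 ± 5.23 CPM with Cdkn1a and 6.99 ± 5.23 without (SD, n = 5), higher in 3 of 5 libraries. In alveolar macrophage-like cells it was at 3.22 ± 1.70 and 1.41 ± 1.33, higher in 4 of 5. In AT2-like cells it was at 3.08 ± 0.63 and 1.17 ± 1.04, higher in 5 of 5, but p21Het showed the same order there, at 1.52 ± 0.13 and 0.758 ± 0.69 CPM, in 3 of 3 libraries. In T-like cells of p21mTert, Tert was at 1.88 ± 1.45 CPM with Cdkn1a and 1.41 ± 0.34 without, higher in 3 of 5. No test was made within lineages.

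Per cell, Tert was detected rarely. Of kept barcodes, 1.24% to 2.33% had a Tert UMI in p21mTert, 2.12% and 1.61% in p21mTertCD, 0.75% in WT and 0.443% to 0.669% in p21Het. No barcode had more than 4 Tert UMIs. After thinning each barcode to 3000 UMIs, gCap-like barcodes had one in 2.66% ± 1.94 (SD over 5 libraries) in p21mTert and 0.307% ± 0.393 (SD over 3) in p21Het, and unthinned 4.02% and 0.364%. This left out 850 and 569 shallower barcodes. T-like barcodes had 0.427% ± 0.137 and 0.353% ± 0.108 at that depth, and unthinned 0.956% and 0.826%. Erythroid-like barcodes, taken as the background, had 0.0469% (4 libraries) and 0.0486% (2 libraries), at a median depth of 3565 UMIs before thinning against 3298 in gCap-like and 6076 in T-like barcodes. The p21Het share in gCap-like barcodes rests on 2 Tert UMIs and cannot be set apart from this background.

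Within lineages, edgeR fits were made in 21 lineages with libraries of at least 20 barcodes, and 129 tests of a member and a lineage passed the filter on low counts. Tert passed it in gCap-like, AT2-like, alveolar macrophage-like and T-like cells, Dkc1 in 19 lineages and Wrap53 in 7. In gCap-like and alveolar macrophage-like cells p21Het held only 2 and 4 Tert UMIs. Tert thus passed there through the libraries with an inserted copy, and its fold changes in these lineages carry that selection. Of the 129 tests, 0 were called in each contrast, beside 0.0323%, 0.0941% and 0.0497% of all tests over genes and lineages. DESeq2 called 0 members too, beside 0.0901%, 0.329% and 0.263% of all tests. At an unadjusted p under 0.05 were 6, 8 and 9 of the 129, or 4.65%, 6.20% and 6.98%, against 5.21%, 4.89% and 6.24% of all genes. The log2 fold change of Tert for p21mTert minus p21Het was 4.15 (SE 0.82, adjusted p = 0.295) in gCap-like, 3.75 (SE 0.78, adjusted p = 0.765) in alveolar macrophage-like, 0.86 (SE 0.40, adjusted p = 0.80) in AT2-like and 0.14 (SE 0.44, adjusted p = 0.999) in T-like cells. The smallest unadjusted edgeR p of another member was 0.00255, for Terf2ip in AT2-like cells in p21mTert minus p21mTertCD (log2 fold change 0.68, SE 0.18, adjusted p = 0.432). Without the filter on low counts, edgeR called Tert for p21mTert minus p21Het in gCap-like and in classical and non-classical monocyte-like cells, where it called 0.488%, 1.08% and 0.974% of genes. For p21mTertCD minus p21Het it called Tert in gCap-like (0.723% of genes) and classical monocyte-like cells (1.38%) but not in non-classical ones (0.574%). For p21mTert minus p21mTertCD it called 0 members, with 0.849% of genes called in gCap-like cells.

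The members other than Tert each had their own order of lineages, as the plot of members by lineage shows. Levels below are means over 11 libraries in CPM of the lineage (SD, n = 11 unless given). A pair of lineages was compared by library with an exact sign-flip permutation test on log2(CPM + 1), run on all 12829 genes and adjusted over them, and all p-values of this kind are exact permutation values. Pairs that are not neighbours in a member's order of lineages were not planned. They were chosen by hand, and the adjustment over genes does not cover that choice. Many genes differ between lineages by this test, so the share of genes called is given with each.

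**Figure D4:**
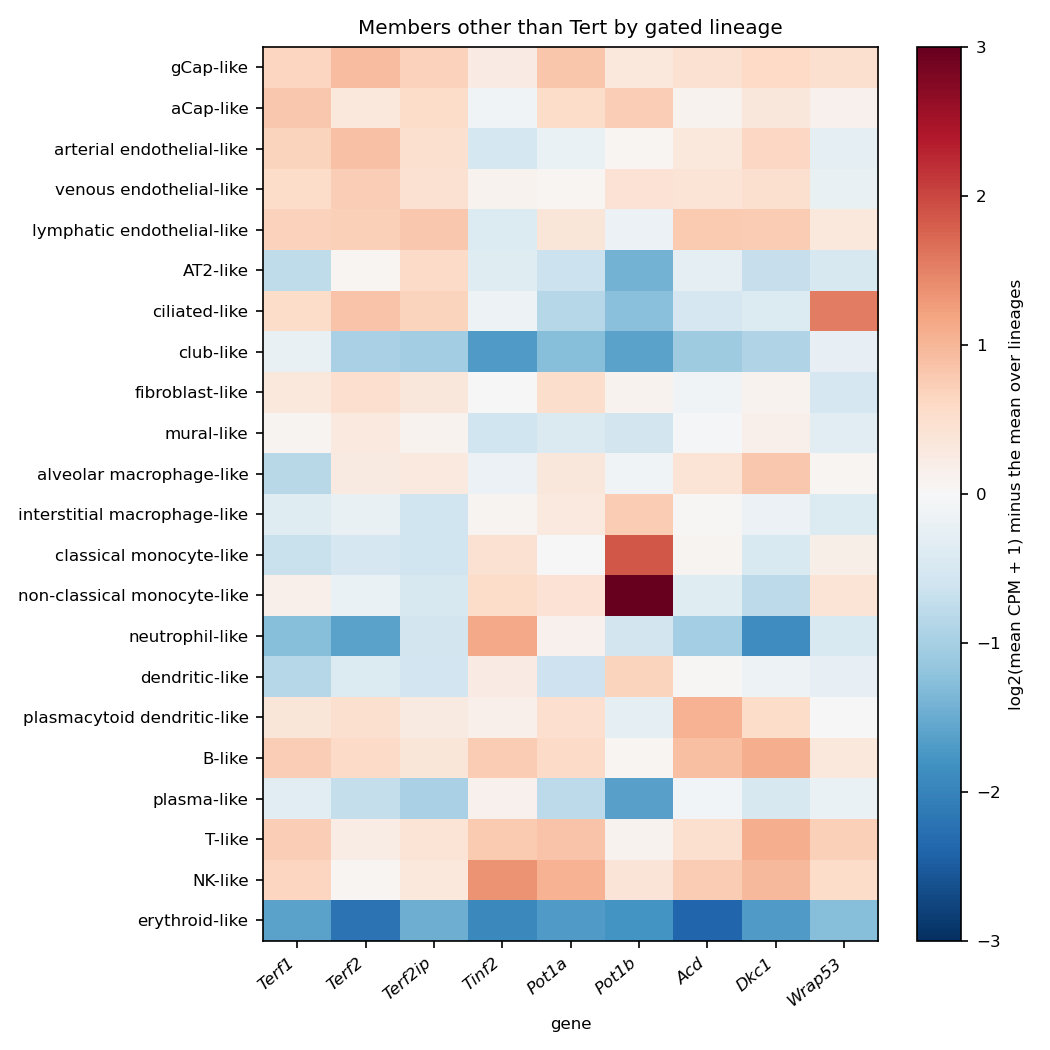
Level of the 9 members other than Tert (x axis) in 22 gated lineages (y axis), as log2(mean CPM + 1) minus the gene's mean over lineages, in colour, with the scale ending at 3. Pot1b in non-classical monocyte-like cells, at 121 CPM, is the strongest excess, and Wrap53 stands out in ciliated-like cells at 15.0 CPM.

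Pot1b, which encodes the POT1 protein known in mice for limiting the resection of telomere ends, was highest in monocytes. In non-classical monocyte-like cells it was at 129 CPM in WT, at 119, 102 and 125 in p21Het, at 182, 112, 106, 130.4 and 114 in p21mTert, and at 96.6 and 116 in p21mTertCD. All 11 libraries lay between 96.6 and 182. The next lineage, classical monocyte-like cells, was at 28.8 ± 9.52 CPM, with no library above 48.6. Pot1b was thus 4.21 times higher in non-classical than in classical monocyte-like cells, in 11 of 11 libraries (exact permutation, adjusted p = 0.00351), where 48.2% of genes were called. The log2 difference was 2.08, and 1.10% of genes had a larger one.

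Interstitial macrophage-like cells followed at 12.8 ± 4.85 CPM, below classical monocyte-like cells in 11 of 11 libraries (adjusted p = 0.00332, exact permutation, 52.9% of genes called). The aCap-like endothelial cells were at 12.8 ± 5.56 CPM (SD over 10 libraries). They did not pass the test against interstitial macrophage-like cells (exact permutation, adjusted p = 0.772, 55.9% of genes called). Dendritic-like cells were at 12.03 ± 4.22, T-like at 7.84 ± 0.87 and alveolar macrophage-like at 6.58 ± 1.45 CPM. Venous endothelial-like, NK-like and gCap-like cells lay between dendritic-like and T-like cells, at 10.0, 9.74 and 9.24 CPM. Dendritic-like cells exceeded T-like ones in 10 of 11 libraries (exact permutation, adjusted p = 0.00514, 71.9% of genes called). The non-classical monocyte-like cells were 9.43 times above the interstitial macrophage-like ones (56.9% of genes called). They were 18.4 times above the alveolar macrophage-like ones (67.8% of genes called), a log2 difference of 4.01 that 0.959% of genes exceeded. Barcodes of the non-classical lineage made up 2.30% to 5.96% of a library and held 27.5% to 46.9% of its Pot1b UMIs. Of them 46.7% to 64.2% had a Pot1b UMI, at a median of 7233 UMIs in all, against 3.73% to 7.06% of T-like barcodes at 6076.

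Pot1a, the paralogue known to repress the ATR-dependent damage response at telomeres, did not share this pattern. It was at 11.6 ± 4.45 CPM in non-classical and 8.27 ± 1.9 in classical monocyte-like cells, 1.40 times higher in the former and higher in 10 of 11 libraries (exact permutation, adjusted p = 0.00835, 48.2% of genes called). Its highest levels were 18.2 ± 6.10 CPM in NK-like, 15.9 ± 2.00 in T-like and 15.4 ± 4.20 in gCap-like cells, and T-like exceeded non-classical monocyte-like cells in 9 of 11 libraries (exact permutation, adjusted p = 0.025, 70.7% of genes called). Of the UMIs of both paralogues, Pot1b held 91.4% ± 2.38 in non-classical monocyte-like, 77% ± 5.26 in classical monocyte-like and 71.1% ± 8.95 in dendritic-like cells. It held 33.1% ± 3.28 in T-like and 29.7% ± 8.27 in AT2-like cells. The order of these shares is over lineages, and a share within a lineage is not a ratio of RNA levels, since the capture of the 2 transcripts may differ. Between the alleles, Pot1b in non-classical monocyte-like cells had edgeR log2 fold changes of 0.17 (SE 0.14), -0.06 (SE 0.18) and 0.23 (SE 0.17) in the 3 contrasts, with adjusted p from 0.788 to 1.00.

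Terf1 and Terf2 encode the subunits that bind the double-stranded repeats. Terf2 had its highest mean in gCap-like cells, at 31.0 ± 5.44 CPM and from 24.7 to 40.2, above T-like cells at 18.8 ± 1.53 in 11 of 11 libraries (exact permutation, adjusted p = 0.00189, 73.2% of genes called). Close behind were arterial endothelial-like (30.0 ± 5.92, SD over 9 libraries), ciliated-like (29.6 ± 4.17) and venous endothelial-like cells (27.4 ± 10.9). The gCap-like and arterial levels did not pass the test against each other (exact permutation, adjusted p = 0.978, 18.8% of genes called). In alveolar macrophage-like cells Terf2 was at 19.5 ± 3.6. Terf1 was at 26.0 ± 3.29 CPM in T-like and 24.2 ± 7.35 in gCap-like cells, which did not pass the test against each other (exact permutation, adjusted p = 0.269, 73.2% of genes called), and at 27.1 ± 8.49 in the 10 libraries with enough aCap-like cells. In alveolar macrophage-like cells Terf1 was at 8.06 ± 3.46, 3.23 times below T-like cells in 11 of 11 libraries (exact permutation, adjusted p = 0.00172, 75.8% of genes called). The gCap-like level was above the alveolar macrophage-like one by 3.00 times for Terf1 and by 1.59 times for Terf2, each in 11 of 11 libraries (exact permutation, adjusted p = 0.00186, 74% of genes called). Whether these 2 differences differ was not tested. Terf1 in gCap-like cells is one of the values that moved with the deposit, at 33.5 to 36.1 CPM in the first and 15.5 to 24.7 in the later one, and the part of the deposit in the comparison was not tested.

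Terf2ip, which encodes the TRF2 partner RAP1, was at 26.4 ± 11.2 CPM in lymphatic endothelial-like cells (SD over 9 libraries, 63 UMIs), 24.3 ± 3.74 in gCap-like, 24.0 ± 3.70 in ciliated-like, 22.5 ± 4.42 in AT2-like and 19.8 ± 2.06 in T-like cells, and at 4.67 ± 5.49 in erythroid-like cells. The gCap-like level exceeded the T-like one in 9 of 11 libraries (exact permutation, adjusted p = 0.0292, 73.2% of genes called).

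Tinf2, the gene of the shelterin linker TIN2, was higher in neutrophil-like than in classical monocyte-like cells, where Terf1 and Terf2 were lower. In neutrophil-like cells Tinf2 was at 24.4 ± 6.85 CPM, from 9.39 to 32.1, above classical monocyte-like cells at 14.8 ± 3.73 in 11 of 11 libraries (exact permutation, adjusted p = 0.00199, 71.4% of genes called). Terf1 was at 5.67 ± 1.81 against 9.09 ± 3.06 and Terf2 at 4.58 ± 2.28 against 10.9 ± 2.89 in the same comparison. Both were lower in neutrophil-like cells, in 10 of 11 libraries (exact permutation, adjusted p = 0.00808 and 0.00513, 71.4% of genes called). NK-like cells had the highest mean Tinf2, at 28.3 ± 10.8 CPM, but did not pass the test against T-like cells at 18.7 ± 2.62 (exact permutation, adjusted p = 0.16, 33.9% of genes called). Gmpr2, which overlaps Tinf2 on the opposite strand, was at 7.29 CPM in neutrophil-like and 15.2 in NK-like cells, and its levels over 22 lineages correlated with those of Tinf2 at an r of 0.42.

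Acd, whose product TPP1 recruits telomerase, had its highest levels in plasmacytoid dendritic-like and B-like cells. It was at 30.3 ± 11.3 CPM (SD over 8 libraries) in plasmacytoid dendritic-like cells, which rest on 103 UMIs, and at 27.4 ± 3.24 in B-like cells. Lymphatic endothelial-like (25.2 ± 8.08, SD over 9 libraries) and NK-like cells (24.9 ± 7.98) followed. B-like and lymphatic endothelial-like cells did not pass the test against each other (exact permutation, adjusted p = 0.525, 48.7% of genes called). The B-like level was above T-like cells, at 20.2 ± 2.02, in 11 of 11 libraries (exact permutation, adjusted p = 0.0027, 58.9% of genes called). It was also above alveolar macrophage-like cells, at 19.3 ± 3.35, in 11 of 11 libraries (exact permutation, adjusted p = 0.00177, 74.2% of genes called). Carmil2, which overlaps Acd on the opposite strand, had an r of 0.52 with Acd over 22 lineages. It was at 12.5 CPM in B-like, 13.9 in T-like and 4.45 in plasmacytoid dendritic-like cells, and its part in the Acd values was not tested.

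Dkc1, whose protein stabilises the telomerase RNA and guides the modification of ribosomal RNA, had its highest means in lymphocytes. It was at 47.5 ± 9.06 CPM in T-like, 47.7 ± 12.2 in B-like and 43.8 ± 11.6 in NK-like cells, at 38.9 ± 8.05 in alveolar macrophage-like, at 33.4 ± 6.03 in gCap-like and at 5.30 ± 2.12 in neutrophil-like cells. NK-like and alveolar macrophage-like cells, neighbours in this order, did not pass the test against each other (exact permutation, adjusted p = 0.226, 65.1% of genes called). T-like cells were above gCap-like cells in 11 of 11 libraries (exact permutation, adjusted p = 0.00189, 73.2% of genes called) and 8.97 times above neutrophil-like cells (exact permutation, adjusted p = 0.00157, 79.7% of genes called).

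Wrap53, whose product carries telomerase to Cajal bodies, was highest in ciliated-like cells. It was at 19.5 CPM there in WT, at 17.3, 15.0 and 10.5 in p21Het, at 13.9, 13.9, 16.5, 18.9 and 15.7 in p21mTert, and at 11.1 and 12.8 in p21mTertCD. T-like cells were next at 8.06 ± 1.37, below in 11 of 11 libraries (exact permutation, adjusted p = 0.00154, 81.6% of genes called), and AT2-like cells were at 2.91 ± 0.71, 5.15 times below (exact permutation, adjusted p = 0.00168, 75.6% of genes called). Dkc1 went the other way between ciliated-like cells, at 16.0 ± 4.91, and T-like cells, being lower in ciliated-like cells in 11 of 11 libraries (exact permutation, adjusted p = 0.00154, 81.6% of genes called). Between the alleles Wrap53 in ciliated-like cells had edgeR log2 fold changes of 0.12 (SE 0.19), -0.24 (SE 0.27) and 0.36 (SE 0.25), with adjusted p from 0.667 to 0.99.

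In the order of mean log2(CPM + 1) over the 22 lineages, few neighbours differed beyond the spread over libraries. Of 210 pairs of neighbours over the 10 members, 9 passed (exact sign-flip permutation, adjusted over all genes), against 54.3% of all genes over the same pairs. Neighbours in the order of a gene are close by construction, so the shares are not like for like. Passing pairs numbered 2 each for Pot1a, Pot1b and Dkc1, 1 each for Tinf2, Acd and Wrap53, and 0 for Tert, Terf1, Terf2 and Terf2ip. The order for Tert pools libraries with and without an inserted copy. Erythroid-like cells ranked last of the 22 for all 10 members, although for Dkc1 the mean CPM of neutrophil-like cells, 5.30, was below theirs, 6.03.

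Genes whose lineage pattern was most like each member's were taken by the Pearson correlation of log2(mean CPM + 1) over the 22 lineages, among 13401 genes. The closest were Luc7l3 (r = 0.97) and Dicer1 (0.97) for Terf2, Dcps (0.94) and Eif1ad (0.93) for Acd, and Smg6 (0.93) and Sft2d3 (0.93) for Terf1. For Dkc1 they were Atm (0.93), which encodes the break-sensing kinase, and Nol8 (0.93), for Terf2ip Rbmx (0.93) and Otud4 (0.92), and for Pot1a Zdhhc20 (0.92) and Zfp182 (0.92). Pot1b was nearest to Ripk2 (0.91) and Ap1s2 (0.89), Wrap53 to C2cd3 (0.90) and Odf2 (0.89), both genes of centrioles and cilia, and Tinf2 to Smchd1 (0.90) and Rab8a (0.89). Tert had the lowest maximum, with Gm26878 (0.83) and Acvr1b (0.83). Among the members themselves, Terf2 and Terf2ip (0.90) and Acd and Dkc1 (0.89) were the closest pairs, and Tert had no r above 0.43 with another member. These Tert correlations pool libraries with and without an inserted copy, so they do not describe the native gene alone.

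Cycling barcodes were set apart by 12 proliferation genes that include no member. This gate does not separate the phases of the cell cycle. The 970 cycling barcodes were 0.657% to 3.29% of a library. Of them 34.2% were T-like, 16.6% alveolar macrophage-like and 10.7% dendritic-like. Against all other barcodes of the same library, 6 members were higher and 1 lower among 12817 genes tested, where 26.4% of genes were higher and 61.8% changed either way (exact sign-flip permutation over 11 libraries, adjusted p under 0.05).

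Terf1 was at 31.0 ± 4.87 CPM in cycling and 16.5 ± 3.34 in other barcodes, Tinf2 at 27.1 ± 5.29 and 13.6 ± 2.35, and Wrap53 at 11.8 ± 2.89 and 5.55 ± 0.785. Each was higher in 11 of 11 libraries (exact permutation, adjusted p = 0.00279). Dkc1, at 48.7 ± 12.3 against 28.5 ± 4.92, and Acd, at 23.4 ± 4.98 against 16.7 ± 1.71, were also higher in 11 of 11, and Terf2, at 27.4 ± 6.80 against 17.9 ± 2.18, in 10 of 11 (exact permutation, adjusted p = 0.00468). Pot1b was lower in 11 of 11, at 7.23 ± 1.46 against 13.3 ± 3.05 CPM. Tert, at 1.62 ± 0.79 against 1.89 ± 0.97 on 27 UMIs in cycling barcodes, Terf2ip and Pot1a did not pass (exact permutation, adjusted p = 0.539, 0.157 and 0.175). The Tert values pool libraries with and without an inserted copy.

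Cycling barcodes differ from the rest in lineage and depth, with medians of 13852 to 19893 UMIs per library against 4106 to 6351. In an alternative chosen after seeing the data, they were set against the level expected from other barcodes of the same library and lineage. Depth was not matched, and its part was not tested. Against this expected level 6 members were higher and 0 lower, where 23.6% of genes were higher and 41.2% changed either way. Terf1 was at 30.7 against 15.8 CPM, Terf2 at 27.7 against 16.8, Tinf2 at 26.8 against 13.7 and Wrap53 at 11.5 against 5.51, each higher in 11 of 11 libraries (exact permutation, adjusted p = 0.00509). Dkc1 was at 48.0 against 34.6 (exact permutation, adjusted p = 0.0111) and Acd at 22.7 against 18.5 (exact permutation, adjusted p = 0.0255). Pot1b was at 7.20 against 8.37 CPM and no longer passed (exact permutation, adjusted p = 0.097). Within T-like barcodes alone, 5 libraries had enough cycling barcodes, and Terf1, Terf2 and Wrap53 were higher in 5 of 5, as were 21.5% of genes with at least as many UMIs as Tert in T-like barcodes. Their exact permutation p was 0.0625, the smallest that 5 pairs can give, so no gene could pass 0.05 here. Tinf2, at 36.6 against 16.5 CPM, and Dkc1, at 53.3 against 44.2, were higher in 4 of 5 (exact permutation p = 0.125 and 0.188), and Acd, at 21.2 against 19.8, in 2 of 5 (exact permutation p = 0.75).

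**Figure D5:**
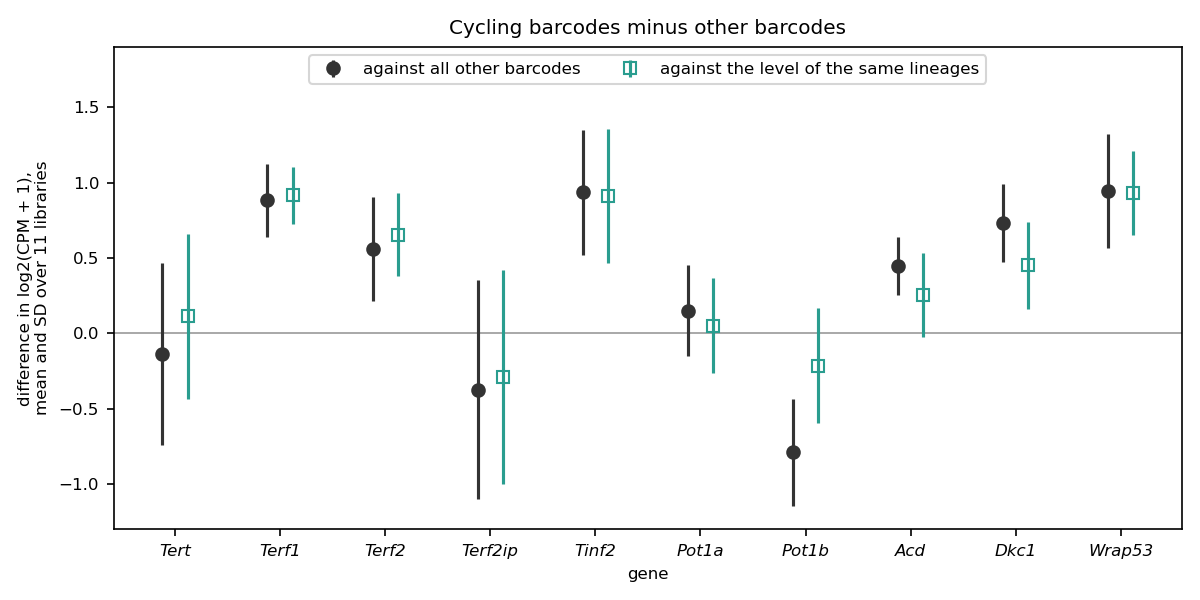
Difference in log2(CPM + 1) between cycling and other barcodes (y axis, mean and SD over 11 libraries) for each member (x axis), against all other barcodes (filled circles) and against the level expected from the same lineages (open squares). Terf1, Tinf2 and Wrap53 lie between 0.88 and 0.94 on both, and Pot1b moves from -0.79 to -0.22.

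Of a list of 40 genes of telomerase assembly, the CST complex, telomere replication, telomere chromatin and break sensing, 39 were in the tables and passed the filter, and Terc was not analysed here. With edgeR 0 of 39 were called in any of the 3 contrasts over all kept cells, at the shares of all genes called given above. At an unadjusted p under 0.05, 2 were higher and 1 lower for p21mTert minus p21Het, 2 and 0 for p21mTertCD minus p21Het, and 1 and 3 for p21mTert minus p21mTertCD, or 7.69%, 5.13% and 10.3% against 7.24%, 6.26% and 16.1% of all genes. The median log2 fold changes of the list were 0.02, 0.08 and -0.02, and those of all genes 0.01, -0.03 and 0.02. The members of the list with the highest levels were Atrx, which encodes a chromatin remodeller, and Nop10, a partner of dyskerin. Atrx was at 198 ± 11.1 CPM and Nop10 at 134 ± 14.2 (SD, n = 11). Atrx had a log2 fold change of -0.08 (SE 0.07) and Nop10 one of 0.06 (SE 0.09) for p21mTert minus p21Het in edgeR.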

How the data were processed

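Droplet single-cell RNA-seq (10x Genomics 3′ V2) was measured in 11 mouse lung libraries. The authors deposited filtered matrices of UMI counts per gene and barcode, made with Cell Ranger against mm10 per the submitters' processing notes. The strand setting is not given in the sources used here. Kept were barcodes of 1000 to 30000 UMIs whose mitochondrial share did not exceed 14%, leaving 36248337 to 67722156 UMIs per library.

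Lineages were gated by z-scored marker lists (at least 3 markers detected, a gap of at least 0.25 to the next lineage), and cycling barcodes by 3 of 12 proliferation genes. The 3573 barcodes with the highest Scrublet scores were left out in an alternative only. Counts were summed per library and lineage, and CPM used the UMIs of the same cells. Groups were compared with edgeR 4.0.16 (quasi-likelihood, TMM) over the 10 replicated libraries, with DESeq2 1.42.0 as an alternative in R 4.3.3. Single values were compared by 2-sided exact permutation over libraries, and lineages by exact sign flips within libraries, in Python 3.11.15 with scipy 1.17.1. Where the planned design adjusted p-values over the members, they were adjusted over all genes instead. Intervals and the limit for 0 counts (3 counts) cover counting error only. The scripts were checked on simulated data.

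The members, marker lists and pathway list were chosen with earlier results of these data known. Named genes are the members, Cdkn1a, the 2 pathway genes with the highest level where none was called, and for each member the 2 genes most alike in lineage pattern (at least 10 CPM in a lineage). Other genes named are overlapping neighbours. Replicate numbers were treated as names, since deviations of same-numbered libraries of different groups correlated in both directions.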

Additional observations from a re-analysis of the deposited data

Results flagged for a closer look

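In p21mTert, 1 library stood apart from the other 4 for a pair of members over all kept cells. Terf2ip was at 15.8 CPM in p21mTert_3, below the others, and Tinf2 at 18.2 CPM in p21mTert_1, above the others. The latter library belongs to the first deposit, whose 3 libraries were all above the later 8 for Tinf2. The part of the deposit in this value was not tested. In this way 11 genes were examined (the members and Cdkn1a), and how often chance marks a library was not determined.

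The Tert difference between p21mTert and p21Het itself differed between lineages at an unadjusted p under 0.05 by exact permutation, but not after adjustment over the 12 tests of Tert. On the log2(CPM + 1) scale it was larger by 2.06 in gCap-like and by 1.29 in alveolar macrophage-like than in AT2-like cells. It was larger by 2.46 in gCap-like and by 1.69 in alveolar macrophage-like than in T-like cells. Between barcodes with and without a Cdkn1a UMI the difference was 1.16.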

How the results depend on the processing

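Differences here are in log2(CPM + 1) with exact permutation p-values, unless edgeR is named. In the later deposit alone, where 0.0667 is the smallest p possible, the p21mTert minus p21Het difference of Tert was 1.13 over all cells, 2.43 for gCap-like against AT2-like, 1.26 for alveolar macrophage-like against AT2-like and 1.33 for Cdkn1a-positive against Cdkn1a-negative barcodes. Without high doublet scores the alveolar macrophage-like against AT2-like value was 0.98 (exact permutation p = 0.0536). Leaving out 1 library gave 0.97 to 1.10 over all cells, 1.80 to 2.32, 1.17 to 1.47, and 1.09 to 1.34 in the same order. A pseudocount of 0.1 gave 1.70, 3.54, 3.37 and 1.74, and one of 5 gave 0.40, 1.01, 0.42 and 0.51. For p21mTert minus p21mTertCD over all cells, leaving out 1 library gave -0.0215 to 0.28, turning without p21mTertCD_2 (-0.0215). With edgeR, leaving out 1 library gave -0.17 to 0.42 in that contrast, also turning without p21mTertCD_2 (-0.17). T-like cells gave -0.0558 to 0.36 in the same way for p21mTert minus p21Het, turning without p21Het_3 (-0.0558). DESeq2 called 1 member in each contrast against p21Het. Without the filter on low counts, 3 and 2 tests of members within lineages were called in these contrasts.

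With the replicate number as a block, edgeR called 0 of 17503 genes over all cells in each contrast (366, 691 and 1171 at an unadjusted p under 0.05), and Tert had log2 fold changes of 1.95, 1.69 and 0.26. Deviations of same-numbered libraries correlated at -0.33 to 0.22, so no pairing by number was used. So few libraries cannot exclude a pairing, and p21Het_1 and p21mTert_1 do share the first deposit. The few Tert UMIs per lineage limit every lineage value of that gene.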
